A study of Mus musculus with 6 samples.

Results

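Zinc and copper are essential and toxic metals, and cells hold the free ions low with binding proteins and transporters. The genes described here are 9 such genes of the mouse. They are the metallothioneins Mt1 and Mt2, the zinc-sensing transcription factor gene Mtf1, the zinc exporter gene Slc30a1, the zinc importer genes Slc39a10 and Slc39a14, the copper importer gene Slc31a1, and the copper pump genes Atp7a and Atp7b. They were picked by name: each is a row of the deposited count table whose Ensembl identifier carries that symbol in the GENCODE M21 annotation, and all 9 of 9 were found among the 43346 genes of the table. All 9 also passed the filter on low counts, which 14000 genes passed. Atp7b passed it through its 3 erastin libraries alone.

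Primary mouse embryonic fibroblasts (MEFs), cells grown out of mouse embryos, of the C57BL/6 strain were used at passage 9. They received 3 µM erastin, an inhibitor of the cystine/glutamate antiporter that induces ferroptosis, or DMSO, and RNA was taken after 24 h. Both groups were grown in medium that contained serum and 2-mercaptoethanol. Each treatment had 3 libraries from an experiment that the labels describe as done in triplicate. The labels name no separate embryos or cultures, so p-values measure the spread between these samples, which may be technical.

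Metallothioneins are small proteins rich in cysteine whose thiols bind zinc and copper. MTF1 binds a short DNA motif, the metal response element (MRE), when cytosolic zinc rises, and is known to activate Mt1, Mt2 and Slc30a1 and to repress Slc39a10. Transporters of the SLC30 family move zinc out of the cytosol into vesicles or out of the cell, and those of the SLC39 family move it into the cytosol. SLC31A1 takes up copper, and ATP7A and ATP7B pump it into the secretory pathway or out of the cell.

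Stretches of the promoters of 3 genes that MTF1 is known to activate are printed here. They show where letters of the metal response element lie in these stretches only. Each line holds the 250 bases before the RefSeq start site (GRCm38.p6, plus strand). The capitals mark matches to the core of the element, searched on both strands as TGCACNC or TGCGCNC.
Mt1, chr8:94178839-94179088: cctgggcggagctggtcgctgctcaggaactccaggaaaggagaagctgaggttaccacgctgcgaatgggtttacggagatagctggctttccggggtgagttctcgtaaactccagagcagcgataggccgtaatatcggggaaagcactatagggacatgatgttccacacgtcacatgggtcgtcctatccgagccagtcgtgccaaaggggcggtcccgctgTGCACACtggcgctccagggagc
Mt2, chr8:94172368-94172617: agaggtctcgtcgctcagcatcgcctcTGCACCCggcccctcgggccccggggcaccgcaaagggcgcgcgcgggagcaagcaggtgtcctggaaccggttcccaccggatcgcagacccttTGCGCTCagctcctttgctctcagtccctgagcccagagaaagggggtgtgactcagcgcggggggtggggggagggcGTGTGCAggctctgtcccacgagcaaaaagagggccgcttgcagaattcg
Slc30a1, chr1:191906531-191906780: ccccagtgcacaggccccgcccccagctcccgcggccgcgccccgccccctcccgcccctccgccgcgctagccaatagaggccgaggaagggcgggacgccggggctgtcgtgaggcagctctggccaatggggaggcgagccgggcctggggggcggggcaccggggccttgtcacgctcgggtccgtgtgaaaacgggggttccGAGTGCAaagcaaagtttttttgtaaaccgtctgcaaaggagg

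RefSeq promoter windows of 300 bases, from 250 before to 50 after the start, were matched for 8 of the 9 genes, all but Slc39a14, with 2 windows for Slc39a10. Positions are relative to the RefSeq start, which differs from the start of the GENCODE gene given below. Mt2 held 4 matches to the MRE core, beginning at positions -223, -128, -50 and 5. Its RefSeq start is at 94172618 and its GENCODE gene begins at 94172664, so the match at 5 also lies before the latter. Mt1 held 3, at -23, 3 and 21. Bases past position 50 were not searched, so matches beyond the Mt1 window would be missed. Slc30a1 held 2, at -43 and 31, and Atp7a 2, at -132 and -120. The Atp7b window held 1, at -157. On the minus strand the RefSeq start of Atp7b is at 22060074 and its GENCODE gene begins at 22060305. The match therefore lies inside the GENCODE gene. No match to these letters lay in the windows of Mtf1, Slc31a1 and Slc39a10. The Slc39a10 windows, with RefSeq starts at 46853618 and 46925776, do not cover the GENCODE start of that gene at 46892852. The Mtf1 window does not cover the GENCODE start of Mtf1 either. The sequence at these GENCODE starts was not searched. Among all 32851 windows of this length in the table, 25.7% held at least 1 match, 7.11% at least 2, 1.97% at least 3 and 0.517% at least 4. The core of the antioxidant response element, searched as TGACNNNGC on both strands, was found in 12.4% of all windows. It was found in Mt2 (TGACTCAGC, -79 to -71) and in Slc30a1 on the other strand (-82 to -74). The 2 motifs did not overlap in any of these windows. A match is a stretch of letters and was not tested as a bound site.

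**Figure D1:**
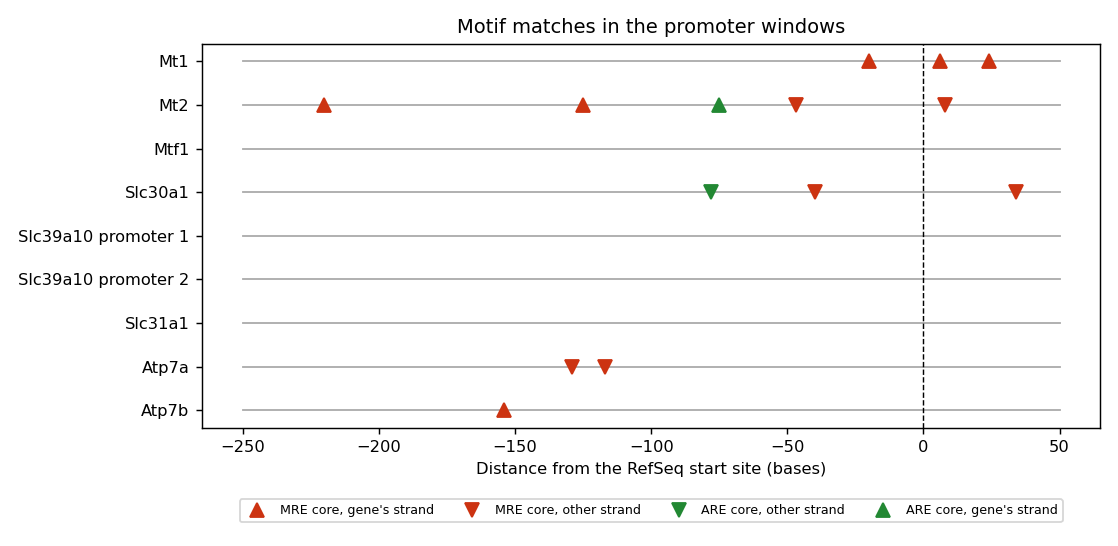
Matches to the MRE core (red) and the antioxidant response element core (green) in the 300-base RefSeq promoter windows. The horizontal axis is the distance from the start site in bases, and triangles point up for the gene's strand and down for the other strand. Mt2 has 4 MRE matches and Mt1 has 3, and the windows of Mtf1, Slc31a1 and Slc39a10 have none.

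Total counts were 13333911 to 18505571 in the DMSO and 16800789 to 20509970 in the erastin libraries. Levels are given as CPM, the read count of a gene relative to the scaled size of its library. A count of 3 reads, taken as the detection floor, was worth 0.14 to 0.234 CPM. Of the 14000 genes tested, 43.1% passed an adjusted p-value of 0.05 in edgeR's quasi-likelihood test, 21.6% higher and 21.5% lower with erastin. The 10 fibroblast markers, such as Col1a1 and Thy1, summed to 35433 to 38496 CPM in DMSO and to 25455 to 26901 CPM in erastin libraries, and 8 of them fell. The 7 epithelial markers summed to at most 3.65 CPM and the 5 leukocyte markers to at most 17.9 CPM in any library. The 5 endothelial markers summed to 5.1 to 7.71 CPM in DMSO and 14.1 to 17.4 CPM in erastin libraries. Of these, Kdr and Tek rose (edgeR adjusted p = 0.00172 and 0.00117), while Pecam1 and Cdh5 were at most 0.372 CPM on average. None of these markers was at 0 in all libraries, and their part in the results below was not tested. In bulk RNA, fewer cells of a type and less RNA per cell cannot be told apart.

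With erastin, both metallothionein genes, the zinc exporter gene Slc30a1, Mtf1 and the copper pump gene Atp7a rose, and the zinc importer genes Slc39a10 and Slc39a14 fell. Slc31a1 did not pass the test. Atp7b is kept apart, because it passed the filter only through its erastin libraries and so had to differ. Of the other 8 genes 5 were higher and 2 lower, against the 21.6% and 21.5% of all genes given above. In 7 of these 8 the 3 erastin libraries did not overlap the 3 DMSO libraries, which was the case for 52.5% of all genes tested. The median log2 fold change of the 8 was 0.65, beside -0.0014 over all genes. These genes, and the gene lists below, were chosen with earlier results of these data known. Their shares are therefore a description and no test of enrichment.

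**Figure D2:**
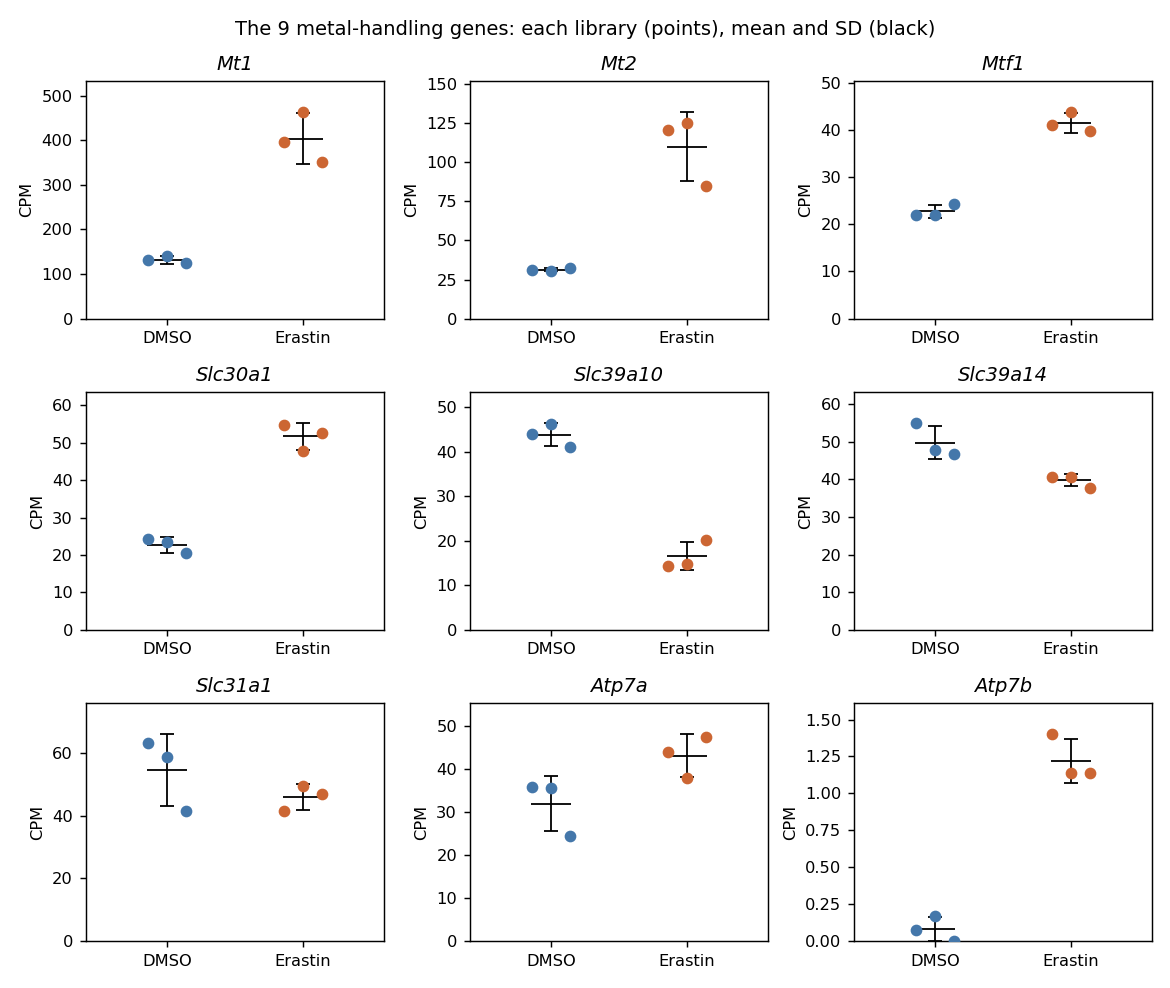
Level in CPM (vertical axes, linear from 0, one scale per gene) of the 9 genes in the 3 DMSO (blue) and 3 erastin (orange) libraries. Points are libraries, from replicate 1 at the left to 3 at the right, and black marks the mean with its SD. The groups are apart in every panel except that of Slc31a1, where DMSO ranges over 41.5 to 63.2 and erastin over 41.5 to 49.6 CPM.

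Mt1 (ENSMUSG00000031765.7, chr8:94179082-94180327, plus strand) had 131, 141 and 124 CPM in the DMSO and 395, 463 and 350 CPM in the erastin libraries. All 3 erastin libraries were far above the DMSO range, and they differed more among themselves than the DMSO libraries did. Mt1 rose 3.05-fold (95% interval 2.65 to 3.52; log2 fold change 1.61, SE 0.10, edgeR adjusted p = 1.27e-08). Mt2 (ENSMUSG00000031762.6, chr8:94172664-94173568, plus strand), its neighbour on chromosome 8, had 31.1, 30.8 and 32.3 CPM in the DMSO and 121, 125 and 84.6 CPM in the erastin libraries. The lowest erastin value, that of replicate 3, was still above every DMSO value. Mt2 rose 3.51-fold (95% interval 2.9 to 4.24; log2 fold change 1.81, SE 0.13, edgeR adjusted p = 6.42e-08).

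Erastin replicate 3 was the lowest of its group for both metallothionein genes. Together Mt1 and Mt2 stood at 156 to 172 CPM in DMSO and 434 to 588 CPM in erastin libraries. Mt1 supplied 80.8%, 82.1% and 79.3% of the reads of the pair in the DMSO libraries and 76.6%, 78.8% and 80.5% in the erastin libraries. The widest 95% Wilson interval of these shares ran from 77.5% to 81% (DMSO replicate 3). The intervals cover counting error only, since PCR reads without molecular identifiers are not independent molecules. The mean share was 80.7% ± 1.39 with DMSO and 78.6% ± 1.98 with erastin (SD, n = 3 each), and the ranges overlapped. The difference of -2.1 percentage points did not pass a two-sided exact permutation test (p = 0.20, where 3 against 3 cannot go below 0.10).

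The other metallothionein genes, Mt3, known mainly from brain, and Mt4, known from stratified epithelium, were left out by the filter on low counts. Mt3 had 12 reads in erastin replicate 3 and 0 in the other 5 libraries. Mt4 had 2 reads in erastin replicate 2 and 0 elsewhere. Only Mt1 and Mt2 had enough reads to be tested, so whether Mt3 and Mt4 changed cannot be said.

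Mtf1 (ENSMUSG00000028890.9, chr4:124802104-124849800, plus strand) encodes the transcription factor itself. It had 21.9, 22 and 24.4 CPM in the DMSO and 41, 43.8 and 39.7 CPM in the erastin libraries, 2 narrow ranges that did not meet. Its level was 1.82-fold higher with erastin (95% interval 1.54 to 2.15; log2 fold change 0.87, SE 0.11, edgeR adjusted p = 1.97e-05).

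Slc30a1 (ENSMUSG00000037434.7, chr1:191906767-191913247, plus strand) encodes the zinc exporter of the plasma membrane. Its DMSO libraries had 24.3, 23.5 and 20.4 CPM and its erastin libraries 54.7, 47.8 and 52.6 CPM. No value of one group came near the other, and the transcript rose 2.27-fold (95% interval 1.92 to 2.68; log2 fold change 1.18, SE 0.11, edgeR adjusted p = 9.65e-07).

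Slc39a10 (ENSMUSG00000025986.6, chr1:46807544-46892852, minus strand) encodes a zinc importer of the plasma membrane. It had 44.1, 46.3 and 41.2 CPM in the DMSO and 14.4, 14.8 and 20.1 CPM in the erastin libraries. Here the erastin libraries were the low ones, with replicate 3 the highest of them. Slc39a10 was 2.66-fold lower with erastin (95% interval 2.17 to 3.27; log2 fold change -1.41, SE 0.14, edgeR adjusted p = 1.36e-06).

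Slc39a14 (ENSMUSG00000022094.11, chr14:70303469-70351425, minus strand) encodes an importer that carries zinc, iron and manganese. It had 54.9, 47.7 and 46.7 CPM in the DMSO and 40.6, 40.6 and 37.8 CPM in the erastin libraries. The groups did not overlap, but the gap between them was smaller than the range of the DMSO libraries. The fall was 1.25-fold (95% interval 1.08 to 1.46; log2 fold change -0.33, SE 0.10, edgeR adjusted p = 0.0175). It did not pass with scaling by total count only (edgeR adjusted p = 0.0614), without DMSO replicate 1 (0.0879) or without erastin replicate 3 (0.0519).

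**Figure D3:**
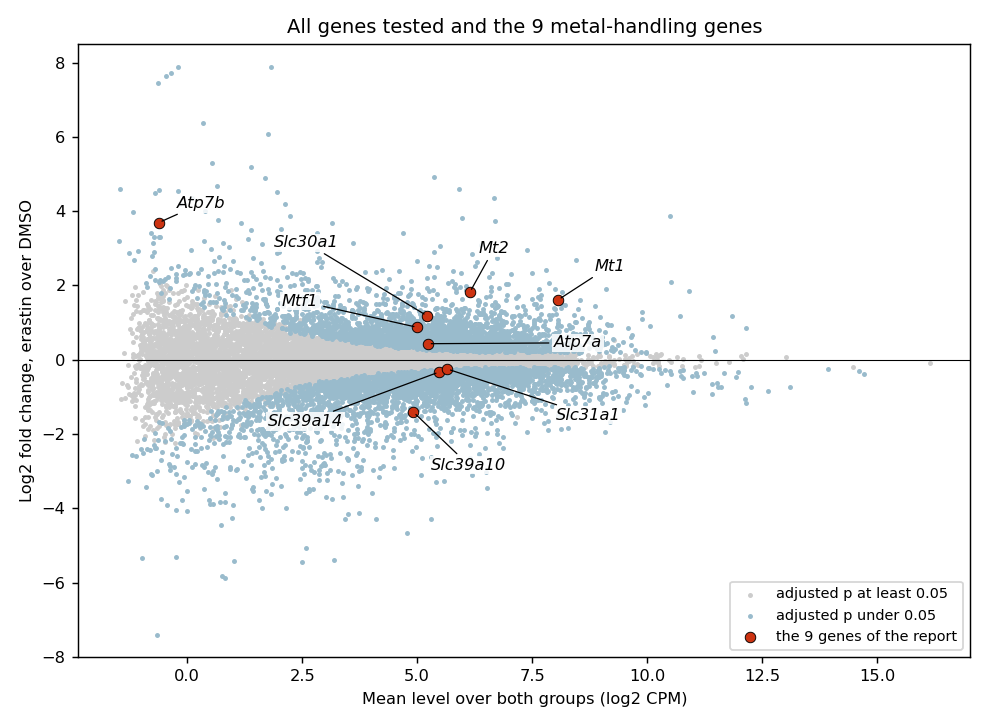
Log2 fold change of erastin over DMSO (vertical axis) against the mean level over both groups in log2 CPM (horizontal axis) for the 14000 genes tested. Genes with an edgeR adjusted p-value under 0.05 are blue, other genes grey, and the 9 metal-handling genes red and named. Mt2 at 1.81 and Mt1 at 1.61 lie above zero and Slc39a10 at -1.41 below it, while Atp7b, plotted at its fitted value of 3.69, has a very low level and is not counted as a call.

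Slc31a1 (ENSMUSG00000066150.8, chr4:62360727-62391769, plus strand) encodes the high-affinity copper importer. Its libraries had 63.2, 58.9 and 41.5 CPM with DMSO and 41.5, 49.6 and 46.9 CPM with erastin. The erastin values lay inside the DMSO range or at its lower end, and DMSO replicate 3 was the low one of its group. The log2 fold change was -0.25 (95% interval -0.54 to 0.04, edgeR adjusted p = 0.159). With DMSO replicate 3 left out it was called lower (edgeR adjusted p = 0.00632, log2 fold change -0.41). The same call was made after an offset for GC content and transcript length (edgeR adjusted p = 0.049, log2 fold change -0.34).

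Atp7a (ENSMUSG00000033792.8, chrX:106027276-106124926, plus strand) encodes the copper pump found in most tissues, whose loss in humans causes Menkes disease. It had 35.7, 35.5 and 24.4 CPM in the DMSO and 43.9, 37.8 and 47.5 CPM in the erastin libraries. The groups came close, at 35.7 and 37.8 CPM, and DMSO replicate 3 was again low. The rise was 1.35-fold (95% interval 1.09 to 1.67; log2 fold change 0.43, SE 0.14, edgeR adjusted p = 0.0248). This call was lost without DMSO replicate 3 (log2 fold change 0.27, edgeR adjusted p = 0.0893), without erastin replicate 1 (0.0814), without erastin replicate 3 (0.0850) and after the GC and length offset (0.0610).

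Atp7b (ENSMUSG00000006567.7, chr8:21992785-22060305, minus strand) encodes the related pump of liver, whose loss in humans causes Wilson disease. It was nearly undetected with DMSO, with 1, 3 and 0 reads, and had 30, 19 and 22 reads in the erastin libraries. In CPM the erastin libraries stood at 1.4, 1.14 and 1.14. The ratio of summed reads, scaled by library size, was 13.6 (95% exact counting interval 5.09 to 51.4, from 71 and 4 reads). The interval covers counting error only, and no test is given, since the filter let the gene in through its erastin libraries alone.

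Levels of different genes were compared per kilobase of the principal transcript in GENCODE M21. This transcript has 549 bases for Mt1, 511 for Mt2 and at least 3718 for the others. Size selection of the libraries can change the recovery of short transcripts, and this was not tested. The longest Mt1 transcript has 1085 bases, with which its level per kilobase would be lower. The SDs below do not cover these limits. In each of the 3 DMSO libraries the order was Mt1, Mt2, Slc31a1, Slc39a14, Slc39a10, Atp7a, Slc30a1, Mtf1 and Atp7b. Mt1 stood at 240 ± 16 and Mt2 at 61.4 ± 1.56 CPM per kilobase with DMSO, and the others at 14.7 ± 3.09 (Slc31a1) or less (SD, n = 3). With erastin Mt1 stood at 733 ± 104, Mt2 at 215 ± 43.4 and Slc31a1 at 12.4 ± 1.11 CPM per kilobase (SD, n = 3). Slc30a1 followed Slc31a1 in all 3 erastin libraries, at 9.85 ± 0.673 CPM per kilobase, and Slc39a10 was the lowest but for Atp7b, at 2.99 ± 0.577 (SD, n = 3). Neighbours in the DMSO order did not overlap between genes, although the lowest value of Slc31a1 (11.2) and the highest of Slc39a14 (11.1) nearly met. In the erastin order Slc30a1 (9.11 to 10.4) and Atp7a (7.71 to 9.7) overlapped, as did Atp7a and Slc39a14 (7.67 to 8.24).

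Overlap and shared sequence with other genes can affect counting. Of the stretches of 50 bases in the principal transcripts, at most 0.496% also occurred in a transcript of another gene, the highest share being that of Slc39a10. Mt1 and Mt2 shared none. In GENCODE M21, 4 of them overlap a gene on the opposite strand: Mt2 with Gm45774 over 749 bases, Mtf1 with 1110065P20Rik over 721, Slc30a1 with 1700034H15Rik over 761 and Slc31a1 with Cdc26 over 8116 bases. On the same strand, Slc39a10 overlaps Gm37393 over 3870 bases and Gm28151 over 951, and Mtf1 overlaps n-R5s192 over 119. These same-strand partners had at most 0, 7 and 0 reads in any library. On the opposite strand, 1110065P20Rik had up to 350 reads, Cdc26 up to 289 and 1700034H15Rik up to 10, and Gm45774 has no count. How reads in such overlaps were counted is not given in the sources used here. Whether counting used the strand is not given in the sources used here, so reads of partners on opposite strands cannot be told apart.

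The wider families of zinc transporters moved in both directions. Of the 10 SLC30 exporter genes 6 were tested, of which 3 rose and 1 fell, beside the 21.6% and 21.5% of all genes. The median log2 fold change was 0.17. It was -0.16 over the 5 genes other than Slc30a1, of which 2 rose and 1 fell. For the 6 it was 0.06 with the GC and length offset, 0.11 under upper-quartile scaling, 0.10 without DMSO replicate 2 and 0.26 without erastin replicate 2. Besides Slc30a1, the vesicular transporter gene Slc30a4 rose from 84.6 ± 8.01 to 192 ± 16.8 CPM (SD over 3 libraries; log2 change 1.18 with an edgeR adjusted p of 1.46e-07). Slc30a9, linked to zinc export from mitochondria, rose by 0.50 on the log2 scale (adjusted p by edgeR = 0.00687). The Golgi transporter gene Slc30a7 fell from 75.1 ± 6.79 to 51.1 ± 5.01 CPM (SD over 3 libraries; adjusted p by edgeR = 0.00045). Slc30a6 did not pass (log2 fold change -0.23, 95% interval -0.57 to 0.12), and neither did Slc30a5, named after its values were seen (-0.16). Slc30a2, Slc30a3, Slc30a8 and Slc30a10 were left out by the filter.

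Of the 14 SLC39 importer genes 10 were tested, of which 2 rose and 5 fell, beside the 21.6% and 21.5% of all genes. The median log2 fold change was -0.20, and -0.12 with the GC and length offset. Without Slc39a10 and Slc39a14 it was -0.02 over 8 genes, of which 2 rose and 3 fell. Slc39a9, a Golgi zinc transporter gene, fell from 72.9 ± 4.47 to 30.9 ± 1.12 CPM (SD over 3 libraries; log2 change -1.24 with an edgeR adjusted p of 1.18e-07). Slc39a1, a plasma membrane importer gene, fell from 257 ± 21.5 to 150 ± 4.03 CPM (SD over 3 libraries; adjusted p by edgeR = 1.65e-06), and Slc39a13 from 103 ± 9.7 to 60.7 ± 4.52 CPM (SD over 3 libraries; adjusted p by edgeR = 1.33e-05). Against these, Slc39a6 rose from 151 ± 9.88 to 325 ± 5.75 CPM (SD over 3 libraries; log2 change 1.10 with an edgeR adjusted p of 3.3e-08). The other importer gene that rose was Slc39a8, named here after its values were seen (log2 fold change 0.56, edgeR adjusted p = 0.0168). It no longer passed after the GC and length offset or without DMSO replicate 3, erastin replicate 1 or erastin replicate 2, which left 1 gene higher. Slc39a2, Slc39a4, Slc39a5 and Slc39a12 were left out by the filter.

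**Figure D4:**
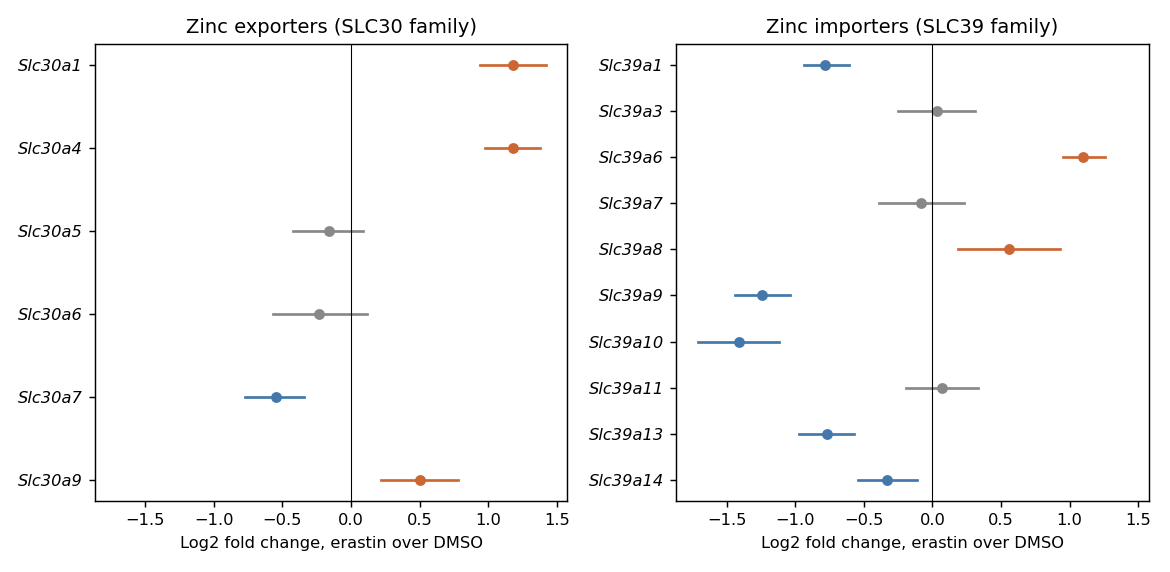
Log2 fold change of erastin over DMSO (horizontal axis) with its 95% interval for the tested SLC30 exporter and SLC39 importer genes. Orange marks genes that rose, blue genes that fell and grey genes that did not pass an edgeR adjusted p-value of 0.05. Both families hold genes on either side of zero, from Slc39a10 at -1.41 to Slc30a1 and Slc30a4 at 1.18.

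Among 17 genes of copper transport and copper chaperones, 16 were tested. Without Slc31a1, Atp7a and Atp7b the list had 2 rises and 5 falls among 13 tested genes. That is 53.8% of the 13, beside 43.1% of all genes. The median log2 fold change of the 16 was -0.23, and it was -0.07 with the GC and length offset and -0.14 without erastin replicate 1. The metalloreductase gene Steap2, whose product reduces iron and copper before uptake, fell from 89.7 ± 8.66 to 51.1 ± 1.76 CPM (SD over 3 libraries; adjusted p by edgeR = 6.52e-06). Its relative Steap3 fell by 0.75 and Steap1 rose by 0.67 on the log2 scale (adjusted p by edgeR = 0.000851 and 0.000727). Commd1, a factor in the traffic of the copper pumps, fell from 16.6 ± 0.675 to 10.5 ± 1.21 CPM (SD over 3 libraries; adjusted p by edgeR = 0.00514). The other calls of the list were named after their values were seen. Sco1, which helps to load copper into cytochrome c oxidase, rose by 0.59 on the log2 scale (edgeR adjusted p = 0.00526). Atox1, which hands copper to the pumps, fell by 0.39 with overlapping groups, and the mitochondrial carrier gene Slc25a3 fell by 0.22 (edgeR adjusted p = 0.0185 and 0.0328). Steap4 was left out by the filter. Scaling by total count only and leaving out DMSO replicate 2 each left 3 falls in this list.

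Of 14 genes of enzymes that carry copper 11 were tested, of which 6 fell and 1 rose (median log2 fold change -0.31), beside the 21.5% and 21.6% of all genes. With the GC and length offset 5 fell. Loxl3, a lysyl oxidase that crosslinks matrix proteins, fell from 195 ± 9.9 to 86.1 ± 2.86 CPM (SD over 3 libraries; log2 change -1.18 with an edgeR adjusted p of 2.81e-08). Sod3, the extracellular superoxide dismutase, fell from 45.7 ± 0.719 to 17.8 ± 2.29 CPM (SD over 3 libraries; log2 change -1.35 with an edgeR adjusted p of 5.13e-07). Loxl1 fell by 0.48 and the amine oxidase gene Aoc3 by 1.87 on the log2 scale (adjusted p by edgeR = 0.000102 and 0.00243). The next genes were named after their values were seen. Loxl2 and Loxl4 fell by 0.31 and 0.34 on the log2 scale. Lox, the lysyl oxidase gene with the highest level, did not change, at 4345 ± 125 and 4381 ± 118 CPM (SD over 3 libraries; log2 change 0.01 with an edgeR adjusted p of 0.894). Sod1 did not pass either (log2 fold change -0.20, edgeR adjusted p = 0.136). Of the 10 fibroblast marker genes, several of them matrix genes, 8 fell in the same libraries, as given above. The other 2, Dcn and Fn1, also matrix genes, did not pass. Whether these changes are linked to those of the copper enzymes was not tested. The 1 gene that rose was Cp, named after its values were seen, which encodes the ferroxidase ceruloplasmin (log2 fold change 1.13, edgeR adjusted p = 0.0145), and it did not pass without DMSO replicate 1 or without erastin replicate 3. Hephl1, Dbh and Tyr were left out by the filter.

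The last list held genes of protein lipoylation, the modification of mitochondrial enzymes that excess copper is known to disturb, together with the ferredoxin gene Fdx1. All 12 were tested, of which 4 rose and 2 fell. These 6 calls are 50% of the list, beside 43.1% of all genes. The median log2 fold change was -0.04 and its sign was not stable, with -0.10 under upper-quartile scaling and 0.12 without DMSO replicate 2. Dld, a subunit shared by the lipoylated enzyme complexes, rose from 56.1 ± 5.21 to 109 ± 4.94 CPM (SD over 3 libraries; log2 change 0.96 with an edgeR adjusted p of 1.03e-06). Dbt, of the branched-chain complex, rose by 1.18 and Lias, the lipoic acid synthase gene, by 0.70 on the log2 scale (adjusted p by edgeR = 5.46e-06 and 0.00123). Dlst, of the oxoglutarate complex, fell by 0.27 on the log2 scale (adjusted p by edgeR = 0.0118). The other gene that fell, Gcsh, named after its values were seen, was at the threshold (edgeR adjusted p = 0.0499). Without erastin replicate 2 the list had 3 calls in place of 6 and 0 lower, and without DMSO replicate 1, erastin replicate 1 or erastin replicate 3 it had 1 lower.

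**Figure D5:**
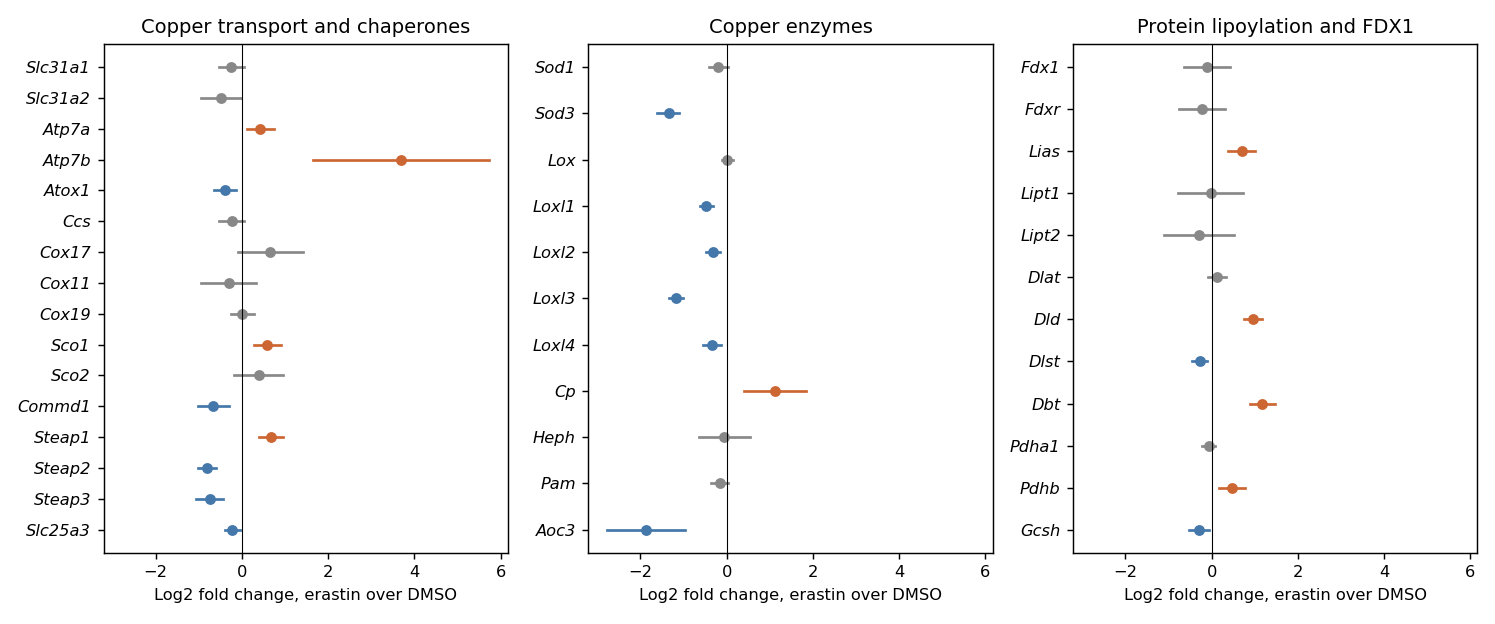
Log2 fold change of erastin over DMSO (horizontal axis, same scale in the 3 panels) with its 95% interval for tested genes of copper transport, copper enzymes and protein lipoylation. Orange marks genes that rose, blue genes that fell and grey genes that did not pass an edgeR adjusted p-value of 0.05. Atp7b, with 4 reads in DMSO in all, has by far the widest interval. It is drawn in orange but is not counted as a call, because it had to differ. Sod3 and Loxl3 lie at -1.35 and -1.18.

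For the 3 of the 9 genes with the smallest p-values, the genes with the most similar profile over the 6 libraries were looked up. The measure was the root mean square difference of log2 CPM after subtraction of the DMSO mean, among 12938 genes with a mean of at least 1 CPM. Nearest to Mt1 were Cttnbp2nl (0.057), the BMP antagonist gene Nog (0.073) and the sulfiredoxin gene Srxn1 (0.084). Nearest to Mt2 were Tmcc3 (0.069), the AP-1 subunit gene Jun (0.072) and the nocturnin gene Noct (0.102). The profile of Slc30a1 was nearest to those of Mat2a (0.031), which encodes the S-adenosylmethionine synthetase subunit, the histone demethylase gene Kdm7a (0.058) and Ypel5 (0.066). Srxn1, for one, rose from 98.6 ± 8.12 to 308 ± 45.5 CPM, Jun from 95.5 ± 9.05 to 319 ± 55.9 CPM and Mat2a from 93.2 ± 6.48 to 210 ± 9.7 CPM (SD, n = 3 each). With 43.1% of all tested genes past the threshold, a close profile is a description only.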

How the data were processed

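RNA-seq read counts were analysed for 3 DMSO and 3 erastin libraries. The deposited table holds whole-number counts per gene, not normalized; per the submitters' processing notes HTSeq 0.9.1, SAMtools and the build mm10 were used, while the aligner, annotation and strand setting are not given in the sources used here. Libraries were made from RNA depleted of rRNA, per the labels' protocols, and were size-selected, amplified by PCR and sequenced on an Ion Proton, which can change the recovery of short transcripts. Columns were matched to libraries by the sample numbers in the labels, and 0 columns were unused. Identifiers were matched without version to GENCODE M21 (GRCm38), and 98% had a symbol.

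Genes were filtered with filterByExpr (minimum count 10, total 15), scaled with TMM factors and tested with the quasi-likelihood test of edgeR 4.0.16 (R 4.3.3) with treatment as the only term. P-values were adjusted by Benjamini-Hochberg over all 14000 genes. Intervals of log2 fold changes are 95% intervals from the fitted SE. No replicate pair agreed within sampling noise (chi-square per degree of freedom 11 to 19.2 within groups). The procedure was also run on simulated data with independent libraries and far fewer changed genes than were called here. That run is therefore no check of the calls in these data. The 9 genes and the 6 gene lists were chosen with earlier results of these data known. Named list genes are the 4 with the smallest p-value in each list besides the 9 genes, and likeness used log2(CPM + 0.5). Promoters are RefSeq sequences (GRCm38.p6). Alternatives were RLE, upper-quartile and total-count scaling, no filter, a filter of 1 CPM in 3 libraries, a replicate block, DESeq2 1.42.0 (not for the lists), an offset for GC content and length (mgcv 1.9.3) with and without the block, leaving out each library, and an adjusted p-value under 0.01.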

Additional observations from a re-analysis of the deposited data

How the results depend on the processing

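Mt1, Mt2, Mtf1, Slc30a1 and Slc39a10 passed in the same direction under each of the 15 alternatives run. Slc39a14 passed in 12 of 15, Atp7a in 10 of 15 and Slc31a1 in 3 of 15, and no log2 fold change of the 9 genes changed sign. Between 6 and 8 of the 9 passed, also 6 to 8 over the fits without 1 library. It was 6 at an adjusted p-value under 0.01 and without erastin replicate 3. These counts include Atp7b, which had to differ and passed each time. The number lower was 1 with total-count scaling, 1 at the stricter threshold, and 1 to 3 without 1 library. All genes passing numbered 4305 to 6104, beside 6028 of 14000 tested (43.1%) in the main fit. The number tested ran from 13047 with the filter of 1 CPM to 26801 without a filter. Of the genes passing, the share that was higher ran from 44% (upper-quartile) to 57.1% (total count).

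Equally numbered libraries deviated from their group means with correlations of 0.0401, 0.00379 and -0.0055 across genes, and 3 of 6 libraries correlated best with their own number, and the numbers were not taken as pairs. With the replicate block 8 of the 9 genes passed, Atp7b included. In all 5882 genes passed, 5751 of them shared with the 6028 reported. The difference in Mt1 share was -2.1 points. The block left 1 lipoylation gene lower instead of 2 and moved no other list count by over 1.5 times.

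List counts that moved by over 1.5 times were these. Zinc exporters lower numbered 2 with the GC and length offset plus block. Importers higher numbered 1 with the offset, with the offset plus block and at 0.01, and 1 to 2 without 1 library. Copper transport genes lower numbered 3 with total-count scaling and at 0.01, and 3 to 6 without 1 library. Copper enzymes higher numbered 0 at 0.01 and 0 to 1 without 1 library. Lipoylation genes passing numbered 3 at 0.01 and 3 to 6 without 1 library. Those lower numbered 0 with total-count scaling and at 0.01, 1 without the filter, 1 with the offset, 1 with the offset plus block, and 0 to 2 without 1 library. Fits without 1 library had fewer samples, and other causes were not tested. Depth limits Atp7b, with 4 DMSO reads, and the genes left out by the filter.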
